A study of Mus musculus with 34 samples.

Results

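The urea cycle turns ammonia, which reaches the liver from the gut and from amino acid breakdown, into urea. The 9 genes described here were taken by name: Cps1, Otc, Ass1, Asl and Arg1, which encode the enzymes of the cycle, Nags, which makes the activator of the first enzyme, Slc25a15 and Slc25a13, which encode its mitochondrial carriers, and Gls2, the glutaminase of the liver. They are 9 of 78298 genes in the deposited table, and all 9 were among the 14980 genes that passed the filter on low counts. Their expression was compared in whole liver of male mice of C57/Bl6 background, 8 to 12 weeks old, before and after partial hepatectomy (PHx), in which the median lobes and the left lateral lobe were removed. SIRTintKO mice (SIRT1intKO in the labels) carried a Villin-driven Cre recombinase and floxed Sirt1, so that Sirt1, an NAD-dependent deacetylase, was deleted in the epithelium of the gut. WT mice carried the floxed Sirt1 alleles without the Cre, so both genotypes shared the floxed locus. The 34 livers fell into 6 groups: untreated WT (0 h, n = 6), WT at 6 h (n = 6) and 24 h (n = 4) after PHx, untreated SIRTintKO (0 h, n = 6), and SIRTintKO at 6 h (n = 5) and 24 h (n = 7) after PHx. Groups follow the labels, although the study's text gives n = 5 for WT livers at 6 h and n = 5 at 24 h after PHx. Whether a WT liver was placed at another time there is not given.

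In the mitochondria of periportal hepatocytes, carbamoyl phosphate synthetase (Cps1) joins ammonia and bicarbonate once N-acetylglutamate, the product of Nags, has switched it on. Ornithine transcarbamylase (Otc) then makes citrulline, and the carrier Slc25a15 exchanges citrulline for ornithine across the inner membrane. In the cytosol, argininosuccinate synthetase (Ass1) adds aspartate, whose export from mitochondria depends on Slc25a13 (citrin), argininosuccinate lyase (Asl) releases fumarate and arginine, and arginase (Arg1) splits arginine into urea and ornithine. Gls2 feeds ammonia from glutamine into this periportal system, and glutamine synthetase (Glul) in the cells around the central vein takes up the ammonia that escapes it.

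Counts assigned to genes came to between 14892122 and 23480492 per library (median 16807340). Values are given below as CPM, the counts of a gene relative to all counts of its library, with library sizes scaled by the TMM method of edgeR. A gene was called when its adjusted p, over all 14980 genes, was under 0.05 and its log2 fold change was more than 1 in size. "Rose" and "fell" are used for an adjusted p under 0.05, whatever the size. On the first principal component of all tested genes, which held 40.7% of the variance, the 4 WT livers at 24 h stood in separate places: replicates 1 and 2 scored -86.2 and -95.9, and replicates 3 and 4 scored 8.0 and 17.6. Of the SIRTintKO livers at 24 h, replicate 5 scored -8.1 and the other 6 scored between -80.3 and -49.7. The sample titles do not set these livers apart. In the order of the library numbers in the labels, WT replicate 3, SIRTintKO replicate 5 and WT replicate 4 stand next to each other. Whether they were handled apart is not given and was not tested. Several results of cycle genes at 24 h are therefore also given without WT replicates 1 and 2 and without WT replicates 3 and 4. These alternatives were added after the data were seen. For the lists of neighbouring genes only counts of called genes are given in this way, and not for every comparison. Values of single neighbouring genes and calls of cell type markers at 24 h are from fits with every WT liver. Which of these calls would be lost without either pair is not given. Hepatic Sirt1 does not check the genotype, since the deletion was in the gut, and it was measured at 11.8 ± 2.59 CPM in untreated WT and 11.6 ± 2.5 CPM in untreated SIRTintKO livers (mean ± SD, n = 6 each). At 24 h its log2 difference between SIRTintKO and WT livers was -0.65 by edgeR, adjusted p = 0.0726. The 95% interval, not adjusted for the number of genes, was -1.10 to -0.20. The library numbers of the untreated livers form a series of their own in the labels, so a difference in handling and the response to PHx cannot be told apart. In bulk tissue, fewer cells of a type and less RNA per cell cannot be told apart either.

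In untreated liver the 9 genes spanned almost 2 orders of magnitude per length. With CPM divided by the length of the principal transcript in kilobases (GENCODE vM21, CPM per kb), Ass1 was the highest in WT at 2385 ± 211 CPM per kb (SD, n = 6), followed by Arg1 at 888 ± 99.9 and Cps1 at 435 ± 26.5 CPM per kb. Asl (212 ± 17.9), Otc (152 ± 16) and Gls2 (122 ± 18.7 CPM per kb) came next. Slc25a15 (88.7 ± 10.5), Slc25a13 (48.2 ± 4.62) and Nags (29.1 ± 3.25 CPM per kb) were the lowest. In this order the ranges of Otc and Gls2 over the 6 WT livers overlapped, and those of the other neighbours did not. Untreated SIRTintKO livers had the genes in the same order of means, and there the ranges of Asl and Otc, Otc and Gls2, and Gls2 and Slc25a15 overlapped. By 24 h in SIRTintKO livers Gls2 had gone from the 6th place to the 9th by its mean, with 24.8 ± 14.5 CPM per kb (SD, n = 7). Its range there overlapped those of Otc, Slc25a13 and Nags, the genes in the places just above it. The 9 genes took 0.972 ± 0.0406% of all counts in untreated WT livers and 0.917 ± 0.108% in untreated SIRTintKO livers (SD, n = 6 each). At 24 h the share was 0.689 ± 0.230% in WT (n = 4) and 0.580 ± 0.161% in SIRTintKO livers (n = 7). Ass1 counts are uncertain by a small share, since its pseudogene Gm5424 had counts equal to 0.617 to 0.899% of those of Ass1 and Ass1 counts were fractional in all 34 libraries.

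**Figure D1:**
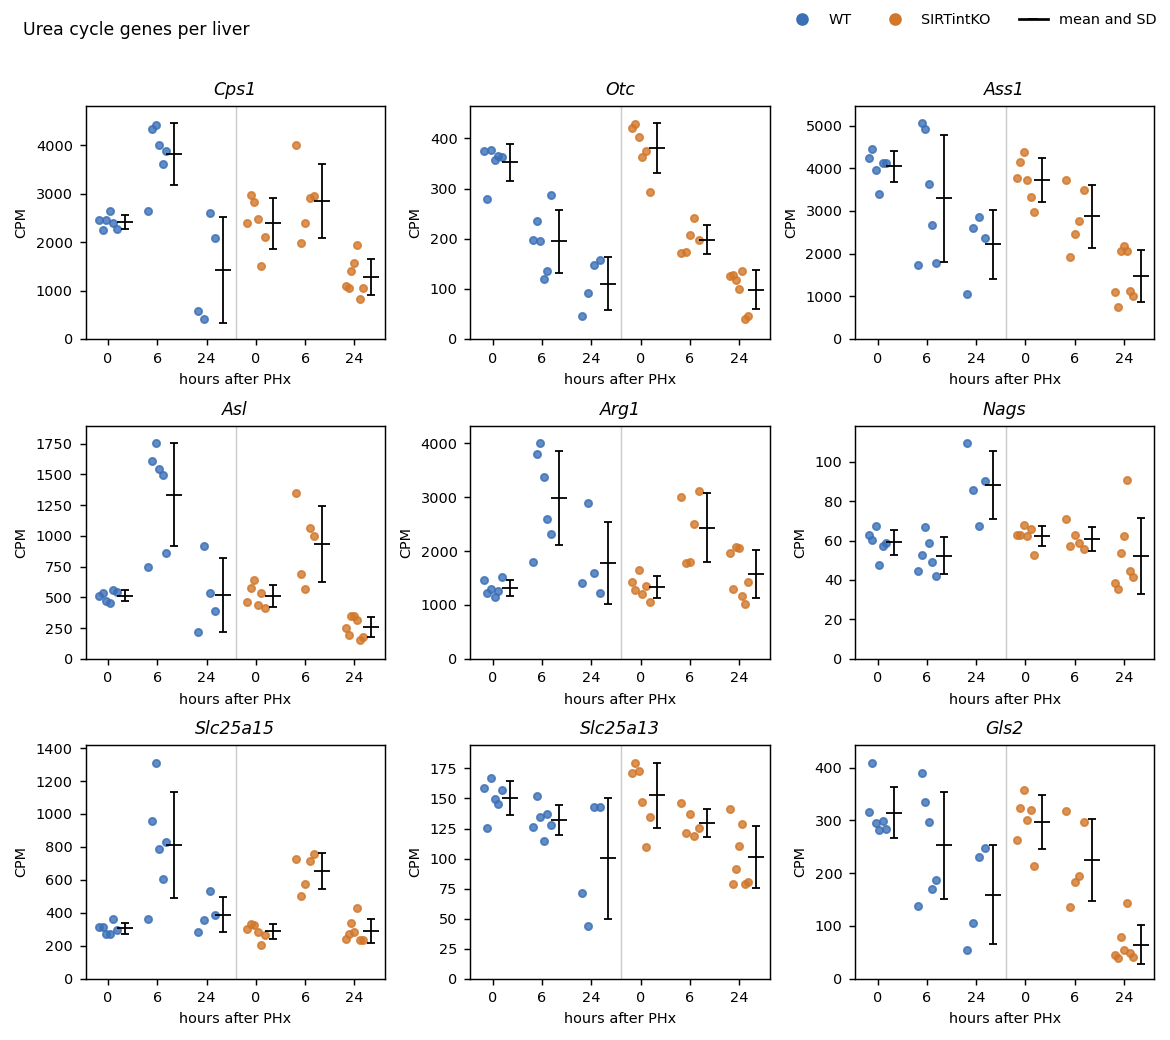
Normalised level (CPM) of each of the 9 genes in every liver, by hours after PHx, for WT (left of each panel, blue) and SIRTintKO (right, orange). Points are livers and the black bars give the mean and SD. Slc25a15, Asl and Arg1 have their highest means at 6 h, the mean of Otc is lower at 6 h than at 0 h and lowest at 24 h, and Gls2 lies below 150 CPM in all 7 SIRTintKO livers at 24 h.

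The first question was how the cycle stood at 6 hours after PHx, in the priming phase. The ornithine carrier Slc25a15 rose 2.66-fold in WT and 2.28-fold in SIRTintKO livers, and was the member with the largest increase in each genotype. Asl and Arg1, the last steps of the cycle, rose with it, while Otc fell in both genotypes. Cps1, Nags, Ass1, Slc25a13 and Gls2 did not pass the test at this time in either genotype. In WT livers 3 of the 9 genes were called (Slc25a15, Asl and Arg1, each higher), against 15.6% of all genes, and 4 of 9 had an adjusted p under 0.05, against 37.4%. In SIRTintKO livers 1 of 9 was called (Slc25a15), against 16.6% of all genes, and 4 of 9 had an adjusted p under 0.05, against 38.4%. The 4 genes past the adjusted p were Slc25a15, Asl, Arg1 and Otc in each genotype. The median log2 fold change of the 9 genes was -0.17 in WT and -0.03 in SIRTintKO livers, beside 0.02 and 0.01 over all genes.

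Slc25a15 returns ornithine to the mitochondrial matrix, where Otc uses it. It ranged from 268 to 364 CPM (median 305, n = 6) in untreated WT livers and from 363 to 1312 CPM (median 807, n = 6) at 6 h. WT replicate 1 at 6 h, with 363 CPM, lay just within the untreated range and the other 5 livers lay above it. The log2 fold change was 1.41 ± 0.21 (SE), adjusted p = 3.91e-06. In SIRTintKO livers it ranged from 206 to 334 CPM (median 293, n = 6) at 0 h, and the 5 livers at 6 h had 725, 501, 574, 714 and 755 CPM. These groups did not overlap, and the log2 fold change was 1.19 ± 0.22 (SE), adjusted p = 6.95e-05.

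Asl cleaves argininosuccinate and is the only step of the cycle that makes arginine. It ranged from 455 to 562 CPM (median 524, n = 6) in untreated WT livers and from 748 to 1756 CPM (median 1519, n = 6) at 6 h, without overlap, a log2 fold change of 1.38 ± 0.27 (SE), adjusted p = 0.000132. In SIRTintKO livers the range was from 410.2 to 642 CPM (median 497, n = 6) at 0 h, and the values at 6 h were 1349, 693, 571, 1066 and 995 CPM. Replicate 3 lay within the untreated range, and the other 4 were above it. The log2 fold change was 0.87 ± 0.27 (SE), adjusted p = 0.0119, under the limit for a call.

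Arg1 releases urea from arginine, in hepatocytes and also in some macrophages. It ranged from 1139.5 to 1525 CPM (median 1272, n = 6) in untreated WT livers and from 1796 to 4008 CPM (median 2989, n = 6) at 6 h, again without overlap, a log2 fold change of 1.19 ± 0.22 (SE), adjusted p = 7.78e-05. In SIRTintKO livers it ranged from 1056 to 1643 CPM (median 1318, n = 6) at 0 h, and the values at 6 h were 2997, 1777, 1787, 2493 and 3116 CPM. The groups did not overlap here either, with a log2 fold change of 0.87 ± 0.23 (SE), adjusted p = 0.0028. The summed level of 11 monocyte and macrophage markers was 52.6 to 132 CPM in WT and 42.5 to 65.2 CPM in SIRTintKO livers at 6 h, beside 76.8 to 122 and 78.8 to 159 CPM at 0 h, so its ranges at 6 h overlapped those at 0 h in WT and lay below them in SIRTintKO livers.

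Otc, which joins carbamoyl phosphate to ornithine, went the other way. It ranged from 279 to 377 CPM (median 364, n = 6) in untreated WT livers and from 119 to 288 CPM (median 196, n = 6) at 6 h. The highest liver at 6 h lay just above the lowest untreated one, and the log2 fold change was -0.86 ± 0.26 (SE), adjusted p = 0.0105. In SIRTintKO livers the range was from 293 to 428 CPM (median 389.9, n = 6) at 0 h and the values at 6 h were 171, 173, 208, 242 and 198 CPM, without overlap, a log2 fold change of -0.94 ± 0.28 (SE), adjusted p = 0.00797. Both falls were short of the limit for a call.

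Cps1, the entry enzyme, ranged from 2244 to 2650.0 CPM (median 2426, n = 6) in untreated WT livers and from 2646 to 4417 CPM (median 3939, n = 6) at 6 h, with replicate 1 the lowest. Its log2 fold change of 0.66 ± 0.29 (SE), adjusted p = 0.0699, missed the threshold, with a 95% interval, not adjusted for the number of genes, of 0.07 to 1.25. In SIRTintKO livers the 6-h values were 3996, 1972, 2389, 2901 and 2950.3 CPM, with replicate 1 above the untreated range and the other 4 within it, and the log2 fold change was 0.25 ± 0.30 (SE), adjusted p = 0.529. Ass1 was widely spread at 6 h: WT livers ranged from 1727 to 5059 CPM (median 3152, n = 6) and SIRTintKO livers had 3722, 1914, 2458, 2759 and 3493 CPM, beside untreated means of 4045 ± 358 CPM and 3719 ± 516 CPM. The interval of its log2 fold change was -0.85 to 0.26 in WT and -0.96 to 0.21 in SIRTintKO livers. Gls2 had intervals of -0.96 to 0.33 and -1.08 to 0.29, Nags of -0.50 to 0.16 and -0.38 to 0.32, and Slc25a13 of -0.58 to 0.21 and -0.65 to 0.18, in the same order.

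Promoter sequence from RefSeq (GRCm38.p6, another build than the GRCm39 of the counts) was at hand for 5 of the 9 genes: Otc, Ass1, Nags, Slc25a15, for which 2 start sites are given, and Slc25a13. The 250 bases before the start site are printed for Slc25a15, which rose at 6 h, Otc, which fell, and Slc25a13, the only one of the 5 genes whose promoter held a letter match. Capitals mark that match, whose first base lies at -13 from the start site.
Slc25a15 (first start site, chr8:22398622-22398871, minus strand): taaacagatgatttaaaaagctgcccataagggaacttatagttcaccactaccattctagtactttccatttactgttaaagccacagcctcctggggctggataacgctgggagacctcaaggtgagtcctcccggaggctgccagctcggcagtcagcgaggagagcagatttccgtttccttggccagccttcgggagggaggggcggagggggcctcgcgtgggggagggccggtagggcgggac
Otc (chrX:10252055-10252304, plus strand): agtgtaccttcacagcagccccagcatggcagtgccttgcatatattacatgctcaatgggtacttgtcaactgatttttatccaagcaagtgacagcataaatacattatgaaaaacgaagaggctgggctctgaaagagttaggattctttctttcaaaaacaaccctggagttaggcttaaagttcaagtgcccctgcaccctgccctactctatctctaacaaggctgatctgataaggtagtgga
Slc25a13 (chr6:6217174-6217423, minus strand): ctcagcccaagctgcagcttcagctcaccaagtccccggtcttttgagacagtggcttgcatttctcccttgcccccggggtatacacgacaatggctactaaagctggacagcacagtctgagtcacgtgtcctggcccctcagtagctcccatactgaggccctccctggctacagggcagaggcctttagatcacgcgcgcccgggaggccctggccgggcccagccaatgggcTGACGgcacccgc
The windows were searched on both strands for TGACGTCA and its part TGACG (cAMP response element, whole and in part), TTGCNNAA and its special case TTGCGCAA (C/EBP), TGTTTAC and TATTTAC (forkhead), CAAAGTCCA (HNF4) and AGAACA (glucocorticoid receptor). Among 32851 promoters of the same length, TGACG was held by 17.8%, AGAACA by 16.1%, TTGCNNAA by 9.56%, TGTTTAC by 3.17%, TATTTAC by 2.73%, TGACGTCA by 1.55%, CAAAGTCCA by 0.384% and TTGCGCAA by 0.164%. The promoter of Slc25a13 held TGACG, and the letters of the other motifs were in none of the 6 windows. Cps1, Asl, Arg1 and Gls2 are named only.

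At 24 hours after PHx each member past the adjusted p was lower than in untreated liver, except Nags, which rose in WT livers. Otc was the gene called in both genotypes, at 0.313 of its untreated level in WT and 0.259 in SIRTintKO livers. Gls2 and Ass1 were called lower in SIRTintKO livers, where Gls2 stood at 0.216 of its untreated level, the largest change of any member in any comparison with 0 h. Slc25a15 and Arg1, raised at 6 h, did not pass the test against 0 h at this time. In SIRTintKO livers 3 of the 9 genes were called (Gls2, Otc and Ass1), against 23% of all genes, and 6 of 9 had an adjusted p under 0.05, each lower, against 50.2%. In WT livers 5 of 9 had an adjusted p under 0.05 (Nags higher, the others lower), against 34.1% of all genes. Of the 9, 1 was called in WT livers (Otc), against 15.7%. The WT count rested on which livers were kept: it was 1 without WT replicates 1 and 2 (3.3% of all genes called), 3 without replicate 3 (19.7%) or 4 (20.4%) alone and 5 without both (30.6%), and it was 2 without WT replicate 4 or 6 at 0 h. The median log2 fold change of the 9 genes was -0.59 in WT and -0.90 in SIRTintKO livers, beside 0.02 and 0.04 over all genes.

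**Figure D2:**
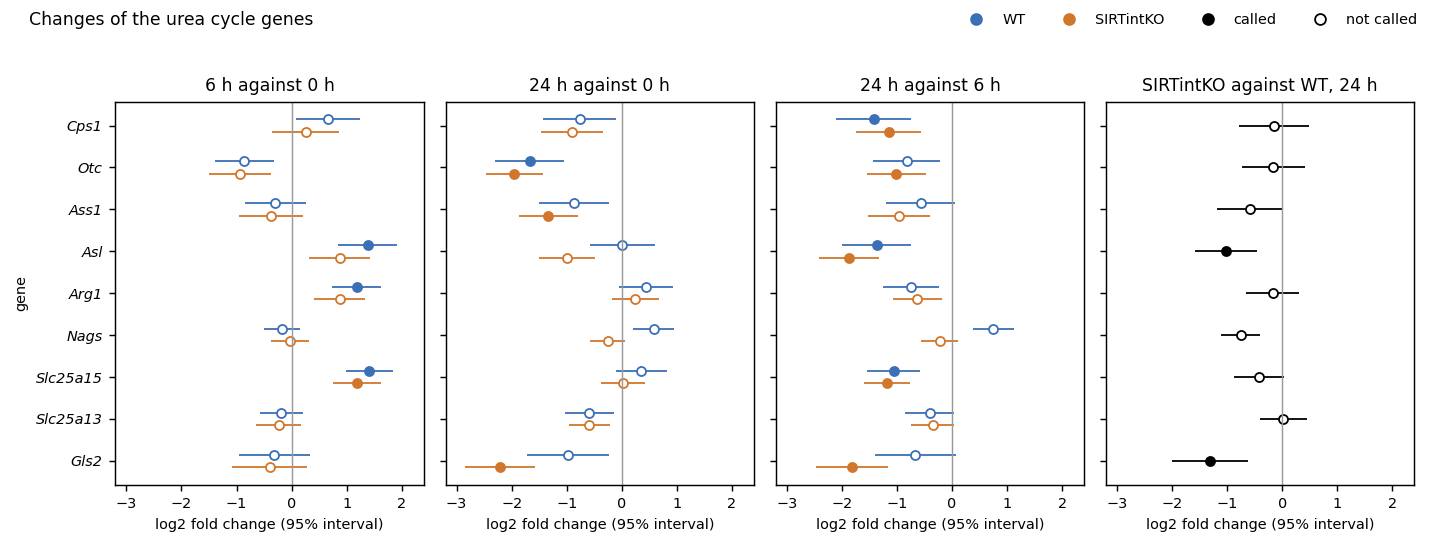
Log2 fold change of each gene with its 95% interval, for 6 h against 0 h, 24 h against 0 h and 24 h against 6 h in WT (blue) and SIRTintKO (orange), and for SIRTintKO against WT at 24 h (black). Filled points were called (adjusted p under 0.05 and a log2 fold change beyond 1), among them Gls2 at -2.21 in SIRTintKO livers at 24 h against 0 h.

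Otc at 24 h was at 45, 92.2, 147 and 158 CPM in the 4 WT livers, all below the untreated range given above, with a log2 fold change of -1.68 ± 0.31 (SE), adjusted p = 0.000142. In SIRTintKO livers it ranged from 40.6 to 135 CPM (median 117, n = 7), again without overlap with 0 h, with -1.95 ± 0.26 (SE), adjusted p = 4.58e-07. Without WT replicates 1 and 2 the WT value was -1.21 (adjusted p = 0.0342), and without replicates 3 and 4 it was -2.34 (adjusted p = 1.8e-05), so Otc was called in these 3 fits.

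Gls2 hydrolyses glutamine in periportal hepatocytes. In untreated livers it ranged from 283 to 409 CPM (median 297, n = 6) in WT and from 212 to 358 CPM (median 310.3, n = 6) in SIRTintKO mice. At 24 h the 4 WT livers had 53.6, 106, 231 and 247 CPM. The 7 SIRTintKO livers ranged from 38.4 to 143 CPM (median 47.6, n = 7), with replicate 5 the highest and the other 6 at or below 79.0 CPM. No liver at 24 h, of either genotype, overlapped its untreated group. The log2 fold change was -2.21 ± 0.31 (SE), adjusted p = 1.49e-06 in SIRTintKO and -0.98 ± 0.37 (SE), adjusted p = 0.0376 in WT livers. The WT value was -0.39 (adjusted p = 0.651) without replicates 1 and 2 and -1.96 (adjusted p = 0.000818) without replicates 3 and 4.

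Ass1, held to be a rate-setting step of the cycle when substrate is ample, ranged from 2981 to 4384 CPM (median 3743, n = 6) in untreated SIRTintKO livers and from 757 to 2188 CPM (median 1115, n = 7) at 24 h, without overlap, a log2 fold change of -1.34 ± 0.26 (SE), adjusted p = 0.000117. In WT it ranged from 3393 to 4444 CPM (median 4125, n = 6) at 0 h and had 1047, 2601, 2853 and 2372 CPM at 24 h. Replicate 1 lay far below the other 3 livers, all 4 were below the untreated range, and the log2 fold change was -0.87 ± 0.31 (SE), adjusted p = 0.031. That value was -0.63 (adjusted p = 0.379) without replicates 1 and 2 and -1.13 (adjusted p = 0.0267) without replicates 3 and 4.

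Asl in SIRTintKO livers ranged from 156 to 349 CPM (median 254, n = 7) at 24 h, below every untreated liver of that genotype. Its log2 fold change of -1.0 ± 0.25 (SE), adjusted p = 0.0015, lay at the very limit for a call: it was past it with upper-quartile scaling (-1.02) and under the stricter filter on low counts (-1.02), and 8 of 13 livers left out singly also moved it past the limit (lowest -1.09). In WT livers Asl was at 216, 921, 536 and 391 CPM, with replicates 1 and 4 below, replicate 3 within and replicate 2 above the untreated range, and the log2 fold change was 0.01 ± 0.29 (SE), adjusted p = 0.983. Cps1 in SIRTintKO livers ranged from 835 to 1932 CPM (median 1096, n = 7), beside from 1505 to 2980.2 CPM (median 2444, n = 6) at 0 h, and fell with a log2 fold change of -0.90 ± 0.28 (SE), adjusted p = 0.00752. In WT livers Cps1 was at 574, 416, 2598 and 2094 CPM. Replicates 1 and 2 were thus far under the untreated range, replicate 3 was within it and replicate 4 just below it. The group's log2 fold change was -0.77 ± 0.33 (SE), adjusted p = 0.0688. It was -0.04 (adjusted p = 0.962) without replicates 1 and 2 and -2.28 (adjusted p = 8.65e-07) without replicates 3 and 4.

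The citrin gene Slc25a13 showed the same division in WT livers at 24 h, with 71.3, 43.5, 143 and 143 CPM, against from 125 to 167 CPM (median 153, n = 6) at 0 h. Its log2 fold change was -0.59 ± 0.22 (SE), adjusted p = 0.0374 in WT livers, -0.07 (adjusted p = 0.889) without replicates 1 and 2 and -1.38 (adjusted p = 1.09e-05) without replicates 3 and 4. In SIRTintKO livers it ranged from 109.5 to 179.9 CPM (median 159, n = 6) at 0 h and from 78.4 to 141 CPM (median 91.4, n = 7) at 24 h, with overlap, and fell with a log2 fold change of -0.59 ± 0.19 (SE), adjusted p = 0.0092.

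Nags rose in WT livers and did not pass the test in SIRTintKO livers. In WT livers it ranged from 47.9 to 67.6 CPM (median 59.4, n = 6) at 0 h and had 109.7, 85.5, 67.4 and 90.3 CPM at 24 h, with the lowest liver just within the untreated range, and it rose with a log2 fold change of 0.58 ± 0.18 (SE), adjusted p = 0.0135. In SIRTintKO livers it ranged from 52.7 to 67.9 CPM (median 62.8, n = 6) at 0 h and from 35.2 to 90.7 CPM (median 44.7, n = 7) at 24 h, with replicate 5 the highest, and the log2 fold change was -0.25 ± 0.16 (SE), adjusted p = 0.18. The WT value was 0.42 (adjusted p = 0.309) without replicates 1 and 2 and 0.74 (adjusted p = 0.00694) without replicates 3 and 4. Slc25a15 at 24 h was at 280.3, 354, 529.7 and 387 CPM in WT livers and ranged from 233 to 431 CPM (median 268, n = 7) in SIRTintKO livers, with log2 fold changes of 0.35 (adjusted p = 0.24) and 0.02 (adjusted p = 0.955). Arg1 was at 1405, 2895, 1596 and 1225 CPM in WT livers, where replicate 2 was the highest, and ranged from 1022 to 2067 CPM (median 1434, n = 7) in SIRTintKO livers. Its log2 fold changes were 0.44 (adjusted p = 0.154) and 0.24 (adjusted p = 0.338).

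Between 6 and 24 h, when the liver passes from priming to growth, no member rose in SIRTintKO livers and Nags was the only one that rose in WT livers, with a log2 fold change of 0.75 ± 0.18 (SE), adjusted p = 0.00458. In SIRTintKO livers 5 of the 9 genes were called, against 10.6% of all genes, and 7 of 9 had an adjusted p under 0.05, against 27.6%. The 5 called genes were Asl at -1.87 (adjusted p = 9.34e-06), Gls2 at -1.82 (adjusted p = 0.000136), Slc25a15 at -1.17 (adjusted p = 0.000121), Cps1 at -1.15 (adjusted p = 0.00352) and Otc at -1.01 (adjusted p = 0.00481) on the log2 scale. In WT livers 3 of 9 were called, against 7.16% of all genes, and 5 of 9 had an adjusted p under 0.05, against 16.5%. These 3 were Cps1 at -1.43 (adjusted p = 0.004), Asl at -1.37 (adjusted p = 0.00263) and Slc25a15 at -1.06 (adjusted p = 0.00267). With only the 2 WT groups in the fit none of the 3 was called (adjusted p of 0.109, 0.0767 and 0.0886), and 3.03% of all genes were. Without WT replicates 1 and 2, 2 of 9 were called, against 4.67% of all genes: Asl at -1.52 (adjusted p = 0.00431) and Arg1 at -1.08 (adjusted p = 0.0187). Cps1 was then at -0.70 (adjusted p = 0.103), Slc25a15 at -0.82 (adjusted p = 0.0794) and Nags at 0.59 (adjusted p = 0.0888). Without WT replicates 3 and 4, 6 of 9 were called, against 18.5% of all genes: Cps1 at -2.92 (adjusted p = 1.56e-07), Gls2 at -1.63 (adjusted p = 0.00605), Otc at -1.47 (adjusted p = 0.0032), Slc25a15 at -1.32 (adjusted p = 0.00172), Asl at -1.19 (adjusted p = 0.024) and Slc25a13 at -1.18 (adjusted p = 0.00018). The call of Slc25a15 in WT livers was also lost without WT replicate 1 at 24 h (-0.91) or without replicate 2 (-0.99) or 3 (-0.85) at 6 h. The call of Otc in SIRTintKO livers, close to the limit, was lost without replicate 6 (-0.84) or 7 (-0.89) at 24 h, or without replicate 3 (-0.99), 4 (-0.91) or 5 (-0.99) at 6 h, and that of Cps1 without replicate 1 at 6 h (-0.98). That of Otc was also lost with DESeq2 (-0.99), median-ratio (-0.99) or upper-quartile scaling (-0.97), 10 counts in every library (-0.99), only the 2 groups in the fit (-0.99), a replicate block (-0.87) and glmTreat, and in each of these but glmTreat its adjusted p stayed under 0.05.

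The comparison of the genotypes at each time asked whether the deletion in the gut altered the response of the liver. At 24 h Gls2 and Asl were called lower in SIRTintKO than in WT livers, Gls2 at 0.401 and Asl at 0.495 of the WT level, and Nags was lower at 0.593 of it. Cps1, Otc, Ass1, Arg1, Slc25a15 and Slc25a13 did not pass the test. This made 2 of 9 called, against 2.68% of all genes, and 3 of 9 with an adjusted p under 0.05, against 5.81%. The median log2 fold change of the 9 genes was -0.42, beside -0.02 over all genes. The groups overlapped for each of the 9 genes.

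Gls2 in SIRTintKO livers was at 63.9 ± 37.3 CPM (SD, n = 7), beside 159 ± 94.7 CPM in WT livers (SD, n = 4), a log2 difference of -1.32 ± 0.34 (SE), adjusted p = 0.0219. The highest SIRTintKO liver, replicate 5, exceeded WT replicates 1 and 2. Asl was at 255 ± 80.6 CPM beside 516 ± 299.8 CPM, a difference of -1.02 ± 0.28 (SE), adjusted p = 0.0283, and WT replicate 1 lay within the SIRTintKO range. Nags was at 52.3 ± 19.3 CPM beside 88.2 ± 17.4 CPM, a difference of -0.75 ± 0.17 (SE), adjusted p = 0.0138. With only the 11 livers at 24 h in the fit no gene was called between the genotypes (0% of 13974): the adjusted p of Gls2 and Asl was then 0.271 and 0.28, with differences of -1.32 and -1.02. The call of Gls2 was lost without WT replicate 3 (-1.10, adjusted p = 0.064) or WT replicate 4 (-1.03, adjusted p = 0.0881). That of Asl was lost without WT replicate 2 (-0.58, adjusted p = 0.209), or without SIRTintKO replicate 2 (-0.97, adjusted p = 0.0571), 6 (-0.91, adjusted p = 0.0638) or 7 (-0.95, adjusted p = 0.0528).

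These differences depended on which WT livers were in the comparison. Without WT replicates 1 and 2, the difference of Gls2 was -1.91 (adjusted p = 0.000783), that of Asl -0.86 (adjusted p = 0.0388) and that of Nags -0.59 (adjusted p = 0.0555). Without WT replicates 3 and 4, Gls2 was at -0.35 (adjusted p = 0.571), Asl at -1.19 (adjusted p = 0.0163) and Nags at -0.92 (adjusted p = 0.00346). Cps1 turned from a lower to a higher level: -0.88 (adjusted p = 0.014) without replicates 1 and 2, -0.15 (adjusted p = 0.804) with all 4 and 1.34 (adjusted p = 0.00192) without replicates 3 and 4. Slc25a13 went from -0.50 (adjusted p = 0.0554) to 0.80 (adjusted p = 0.00976) in the same way. The number of members called was 1 without replicates 1 and 2 and 2 without replicates 3 and 4, while the share of all genes called rose from 2.68% to 9.22% and 8.3%. With SIRTintKO replicate 5 left out besides WT replicates 1 and 2, Gls2 was at -2.24 (adjusted p = 1.5e-06) and Cps1 at -1.01 (adjusted p = 0.00167). This fit was chosen after the data were seen, and replicate 5 was the highest SIRTintKO liver in Gls2. It leaves WT livers at 8.0 and 17.6 on the first principal component against SIRTintKO livers at -80.3 to -49.7. Genotype and that division of the livers cannot be told apart in it.

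**Figure D3:**
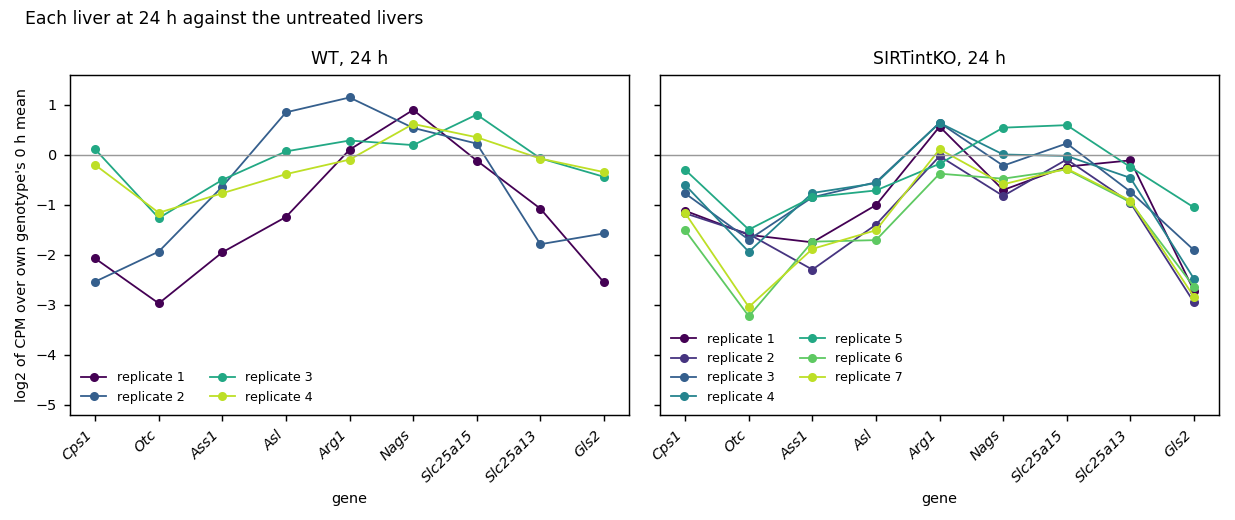
Log2 of the CPM of each gene in each liver at 24 h over the mean of the untreated livers of the same genotype, WT on the left (4 livers) and SIRTintKO on the right (7 livers); each line is a liver and 0 is the untreated mean. WT replicates 1 and 2 lie far below replicates 3 and 4 in Cps1 (574 and 416 against 2598 and 2094 CPM), and SIRTintKO replicate 5 is the highest of its group in Gls2 (143 CPM).

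Before PHx no member passed the test between the genotypes. By edgeR 0 of 9 genes were called at 0 h, against 0% of all genes, 0 of 9 had an unadjusted p under 0.05, against 1.07%, and DESeq2 called 0. Log2 differences of the 9 genes lay between -0.12 and 0.11 at 0 h. At 6 h edgeR again called 0 of 9 genes, against 0% of all genes, 0 of 9 had an unadjusted p under 0.05, against 6.52%, and DESeq2 called 0. The differences lay between -0.51 (Asl, 95% interval -1.08 to 0.05) and 0.22 (Nags, 95% interval -0.13 to 0.57), so that a difference of the size seen for Asl at 24 h was within the interval at 6 h.

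Whether the response to PHx itself differed between genotypes was tested by the interaction of genotype and time. For 6 h against 0 h edgeR called 0 of 9 genes, against 0% of all genes, 0 had an unadjusted p under 0.05, against 3.05%, and DESeq2 called 0. For 24 h against 0 h edgeR called 0 of 9, against 0.00668% of all genes, 3 had an unadjusted p under 0.05, against 12.7%, and DESeq2 called 0. The 3 were Nags at -0.83 (adjusted p = 0.163), Gls2 at -1.23 (adjusted p = 0.266) and Asl at -1.01 (adjusted p = 0.266). The interaction of Asl was -0.58 without WT replicate 2 alone, -0.86 (adjusted p = 0.146) without WT replicates 1 and 2 and -1.19 (adjusted p = 0.0938) without replicates 3 and 4. In these last fits 5.26% and 4.16% of all genes were called. The interaction of Gls2 was -1.82 (adjusted p = 0.0178) without WT replicates 1 and 2 and -0.27 (adjusted p = 0.781) without replicates 3 and 4. That of Cps1 was -0.86 (adjusted p = 0.0832) and 1.36 (adjusted p = 0.0164), opposite in sign, and that of Nags -0.67 (adjusted p = 0.122) and -1.01 (adjusted p = 0.025). Without SIRTintKO replicate 5 at 24 h, the interaction was -1.57 for Gls2 (adjusted p = 0.0444) and -1.02 for Nags (adjusted p = 0.00535).

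Markers of cell types also changed over the same time. The 12 hepatocyte markers tested summed to between 91703.5 and 103522.5 CPM in untreated WT and between 85079 and 111398 CPM in untreated SIRTintKO livers, so the tissue was liver by its defining genes. At 24 h the sum was 63158 to 81595 CPM in WT and 65045 to 110628 CPM in SIRTintKO livers. Between the genotypes at 24 h edgeR called 0 of 12, against 2.68% of all genes, and DESeq2 called 0. By edgeR 5 of the 12 had an unadjusted p under 0.05. The share over all genes at that limit is not given here, so this count cannot be read as a difference of the hepatocyte markers. Neutrophil markers summed to 24.1 to 960.1 CPM in SIRTintKO livers at 24 h and 4.73 to 22.4 CPM at 0 h. In SIRTintKO livers 7 of 7 were called higher, against 23% of all genes, and in WT livers 4 of 7, against 15.7%. In WT livers the sums were 115, 97.4, 14.3 and 7.86 CPM at 24 h, in the order of the replicates, and 7.39 to 24.0 CPM at 0 h. Monocyte and macrophage markers summed to 71.2 to 384 CPM in SIRTintKO livers at 24 h and 57.6 to 135 CPM in WT livers. Against 0 h, 7 of 11 were called higher and 1 lower in SIRTintKO livers, beside 23% of all genes. In WT livers 5 were called higher and 3 lower, beside 15.7%. The part of the cell make-up in the levels of the 9 genes was not tested.

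The WT livers at 24 h that were low in Cps1 also stood apart in other markers. Cholangiocyte markers summed to 483, 264, 64.7 and 78.9 CPM in replicates 1 to 4, and pericentral markers to 870.2, 2253, 4018 and 3417 CPM. At 24 h against 0 h, 15.7% of all genes were called in WT and 23% in SIRTintKO livers. Beside these shares, the hepatocyte list had 4 of 12 called lower in WT and 2 in SIRTintKO livers. Of 10 pericentral genes, 5 were called lower in WT and 8 in SIRTintKO livers, against the same shares. Of 9 periportal genes outside the cycle, 2 were called lower in SIRTintKO livers, against 23%. In WT livers 2 of these 9 were called lower and 1 higher, against 15.7%. In SIRTintKO livers at 24 h against 0 h, Kupffer cell markers had 1 of 5 called higher and 1 lower, endothelial markers 1 of 6 higher and 4 lower, stellate cell markers 2 of 7 higher and 1 lower, cholangiocyte markers 3 of 5 higher, lymphocyte markers 2 of 2 lower, and red blood cell markers 1 of 5 higher and 1 lower, against 23% of all genes. In WT livers the counts were 3 of 5 lower (Kupffer cell), 4 of 6 lower (endothelial), 1 of 7 lower (stellate cell), 3 of 5 higher (cholangiocyte), 2 of 2 lower (lymphocyte) and 1 of 5 lower (red blood cell), against 15.7%. Between genotypes at 24 h, 1 neutrophil, 2 monocyte and macrophage and 1 Kupffer cell marker were called higher in SIRTintKO livers. Called lower were 2 periportal genes and 1 pericentral gene, and the share over all genes called was 2.68%.

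Genes that handle glutamine and ammonia beside the cycle changed in both directions at 24 h. Of 19 tested, 7 were called in SIRTintKO livers at 24 h against 0 h (3 higher, 4 lower) and 6 in WT livers (4 higher, 2 lower), against 23% and 15.7% of all genes, with median log2 fold changes of -0.22 and -0.30 beside 0.04 and 0.02 over all genes. At 6 h 4 were called in SIRTintKO and 3 in WT livers, each higher, against 16.6% and 15.6% of all genes. Glul, the glutamine synthetase of pericentral cells, fell from 784 ± 135 CPM to 110.1 ± 82 CPM in SIRTintKO livers (SD, n = 6 and 7), a log2 fold change of -2.83 ± 0.38 (SE), adjusted p = 7.74e-07. In WT livers its log2 fold change was -1.5 ± 0.45 (SE), adjusted p = 0.0105. Rhbg, an ammonia channel of the same cells, fell with -2.11 (adjusted p = 2.42e-05) in SIRTintKO and -1.68 (adjusted p = 0.00415) in WT livers. Slc1a2, a glutamate transporter, fell with -2.18 (adjusted p = 5.14e-05) in SIRTintKO livers, had -0.77 (adjusted p = 0.202) in WT livers, and was lower in SIRTintKO than WT livers at 24 h, -1.42 (adjusted p = 0.0454). Asns, asparagine synthetase, rose in both genotypes, with 2.28 (adjusted p = 0.0113) in WT and 2.43 (adjusted p = 0.00217) in SIRTintKO livers. Glud1, glutamate dehydrogenase, had -0.30 (adjusted p = 0.119) and -0.18 (adjusted p = 0.492). Between the genotypes at 24 h 3 of the 19 were called, 1 higher and 2 lower, against 2.68% of all genes. Without WT replicates 1 and 2 the counts were 1 in WT livers against 0 h (3.3% of all genes) and 5 between genotypes (9.22%), and without replicates 3 and 4 they were 10 (30.6%) and 3 (8.3%).

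The branch from arginine and ornithine to polyamines, proline and creatine had more called genes higher than lower. Of 24 tested, 12 were called in SIRTintKO livers at 24 h against 0 h (9 higher, 3 lower), and 12 in WT livers (9 higher, 3 lower), against 23% and 15.7% of all genes. These shares hold both directions together, and the share in each direction is not given. Medians were 0.44 and 0.65 on the log2 scale, beside 0.04 and 0.02 over all genes. At 6 h the counts were 9 in SIRTintKO (6 higher, 3 lower) and 5 in WT livers (4 higher, 1 lower), against 16.6% and 15.6%. Without WT replicates 1 and 2 the WT count at 24 h was 1 (3.3% of all genes), and without replicates 3 and 4 it was 14 (30.6%). Values at 24 h of the genes named below are from fits with every WT liver, and which of their WT calls were lost is not given. Odc1, which turns ornithine into putrescine, rose already at 6 h, with 1.16 (adjusted p = 0.000327) in WT and 1.26 (adjusted p = 0.000217) in SIRTintKO livers, and stood at 1.37 (adjusted p = 0.000224) and 1.77 (adjusted p = 7.59e-07) at 24 h. Smox, spermine oxidase, rose with 3.5 (adjusted p = 1.62e-05) and 3.42 (adjusted p = 2.7e-06), and Aldh18a1, the first enzyme from glutamate to proline and ornithine, with 2.29 (adjusted p = 9.84e-05) and 3.12 (adjusted p = 1.66e-07). Gamt, the last enzyme of creatine synthesis, fell with -1.88 (adjusted p = 0.000545) and -2.75 (adjusted p = 1.25e-07). Oat, which turns ornithine into glutamate in pericentral cells, had -0.01 (adjusted p = 0.992) and -0.65 (adjusted p = 0.0886). Among the other users of arginine, Arg2 and Nos2 were scarce. Arg2, the mitochondrial arginase, was at 1.86 ± 1.82 CPM in SIRTintKO livers at 24 h and 0.381 ± 0.181 CPM at 0 h. Nos2, the inducible nitric oxide synthase, was at 4.28 ± 5.25 CPM and 0.0212 ± 0.033 CPM in the same groups. In untreated livers Nos2 did not exceed 0.102 CPM and the median SIRTintKO liver had no count, so no fold is given for it against 0 h, though it was called higher at 24 h in each genotype, as was Arg2. Nos2 was the 1 gene of the 24 called between the genotypes at 24 h, with 0.609 ± 0.75 CPM in WT livers and a log2 difference of 2.82 (adjusted p = 0.0354). That count was 7 without WT replicates 1 and 2 and 5 without replicates 3 and 4, and the share of all genes went from 2.68% to 9.22% and 8.3%.

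Genes that supply aspartate and bicarbonate to the cycle, or remove its fumarate, were 14. In SIRTintKO livers at 24 h against 0 h 4 were called (1 higher, 3 lower), and in WT livers 1 was (lower), against 23% and 15.7% of all genes, with medians of -0.16 and -0.11. At 6 h 4 were called higher and 2 lower in each genotype, against 16.6% (SIRTintKO) and 15.6% (WT). Car5a, the mitochondrial carbonic anhydrase that gives bicarbonate to Cps1, fell at 6 h, with -2.09 (adjusted p = 0.00183) in WT and -1.95 (adjusted p = 0.0054) in SIRTintKO livers, and was still lower than untreated at 24 h, with -1.47 (adjusted p = 0.0481) and -2.52 (adjusted p = 0.000113). Car14, another carbonic anhydrase, fell at 6 h with -2.01 (adjusted p = 7.3e-05) and -2.43 (adjusted p = 2.32e-05). Got1, the cytosolic aspartate aminotransferase, rose at 6 h with 1.62 (adjusted p = 0.00135) in WT and 1.28 (adjusted p = 0.0115) in SIRTintKO livers. At 24 h it had 0.17 (adjusted p = 0.784) in WT and -1.09 (adjusted p = 0.0135) in SIRTintKO livers, and was called lower in SIRTintKO than WT livers, -1.60 (adjusted p = 0.0199), the 1 call of this list between genotypes (2 without WT replicates 1 and 2), against 2.68% of all genes (9.22%). Slc25a22, a mitochondrial glutamate carrier, rose at 6 h with 1.78 (adjusted p = 3.67e-07) and 1.88 (adjusted p = 3.67e-07). Slc25a12, the relative of citrin outside the liver, rose at 6 h with 0.94 (adjusted p = 1.44e-06) and 0.71 (adjusted p = 0.000143).

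Of 17 regulators tested, 6 were called in SIRTintKO livers at 24 h against 0 h, each lower, and 1 in WT livers, also lower, against 23% and 15.7% of all genes, with medians of -0.48 and -0.15. At 6 h 1 was called higher and 3 lower in SIRTintKO livers, and 2 higher in WT livers, against 16.6% and 15.6%. Cebpa, a transcription factor of mature hepatocytes, fell to 64.9 ± 34.9 CPM in SIRTintKO livers from 244 ± 31.8 CPM at 0 h (SD, n = 7 and 6), -1.91 (adjusted p = 2.23e-06), and was at 168 ± 53.7 CPM in WT livers, -0.28 (adjusted p = 0.528). It was the 1 regulator called between the genotypes at 24 h, -1.37 (adjusted p = 0.0103), where 3 were called without WT replicates 1 and 2, against 2.68% and 9.22% of all genes. In WT livers against 0 h, 0 regulators were called without replicates 1 and 2 (3.3% of all genes) and 6 without replicates 3 and 4 (30.6%). Klf15, which links amino acid breakdown to fasting, fell in both, -1.72 (adjusted p = 0.00243) in WT and -2.01 (adjusted p = 2.55e-05) in SIRTintKO livers. The forkhead factors Foxa2 and Foxa1 were called lower in SIRTintKO livers, -1.46 (adjusted p = 0.00205) and -1.38 (adjusted p = 0.000148), and had 0.02 (adjusted p = 0.975) and -0.56 (adjusted p = 0.185) in WT livers. Cebpb had -0.36 (adjusted p = 0.284) and Hnf4a -0.30 (adjusted p = 0.0944) in SIRTintKO livers. Sirt5, the mitochondrial deacylase that acts on Cps1 protein, fell with -0.72 (adjusted p = 0.00523) in WT and -0.54 (adjusted p = 0.00679) in SIRTintKO livers.

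**Figure D4:**
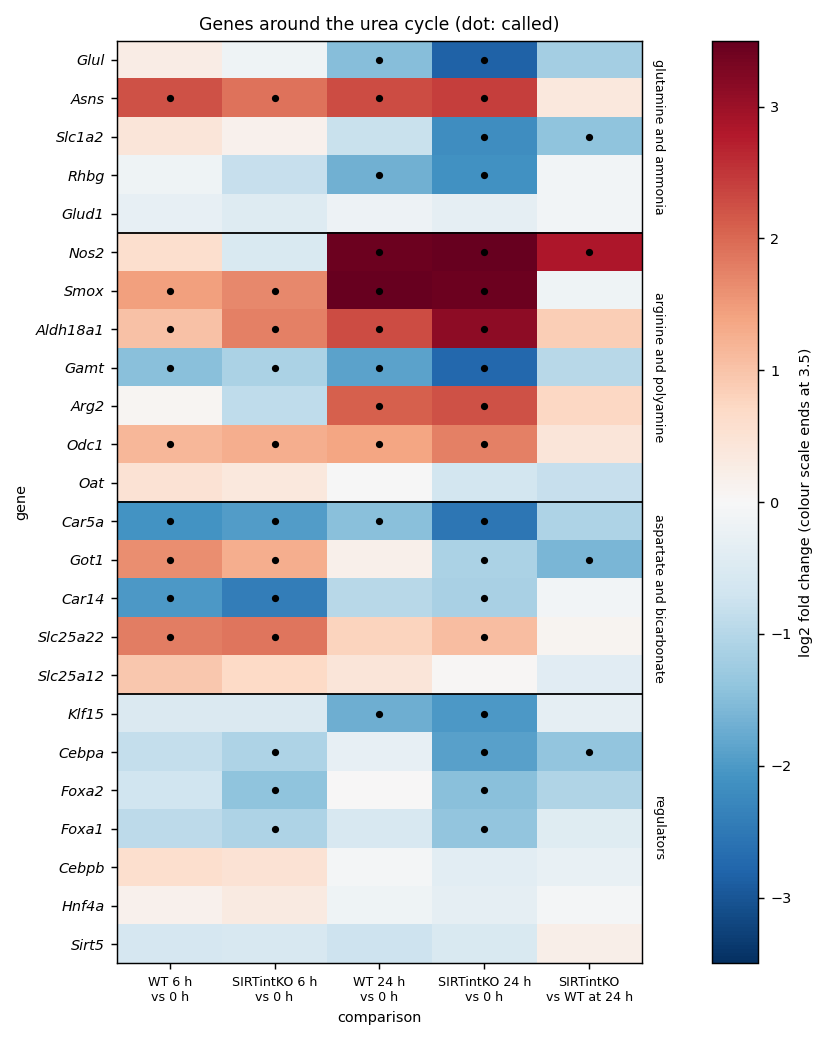
Log2 fold changes of 24 genes around the cycle (rows, in 4 lists) in 5 comparisons (columns); red is higher, blue is lower, and a dot marks a called gene. The colour scale ends at 3.5 and Nos2 in SIRTintKO livers at 24 h lies beyond it; Glul, Rhbg, Gamt and Car5a are blue and Asns, Smox, Aldh18a1 and Odc1 red at 24 h in both genotypes.

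Across the 34 livers the 9 genes did not form a single block. Correlations below are Pearson's r of log2 CPM, given as a description, since the livers share groups and scaling. Of the 36 pairs, 31 had a positive r, with a median of 0.38 and a range of -0.13 to 0.93. The highest was between Ass1 and Gls2 (r = 0.93). Asl, Slc25a15 and Arg1, which rose at 6 h, had r of 0.81 (Asl and Slc25a15), 0.80 (Arg1 and Slc25a15) and 0.77 (Asl and Arg1). Otc was near 0 with Slc25a15 (r = 0.05) and Arg1 (r = -0.13). With the mean of each of the 6 groups removed, 34 of 36 pairs were positive, with a median of 0.435. Among livers of a group, Cps1 and Slc25a13 went together most closely (r = 0.84), followed by Ass1 with Asl (0.83) and with Gls2 (0.82). Otc and Slc25a15 had r = 0.41 on this scale. The division of the WT livers at 24 h remains in these values. There replicates 1 and 2 were low in both Cps1 (574 and 416 CPM) and Slc25a13 (71.3 and 43.5 CPM), and r without them was not computed.

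**Figure D5:**
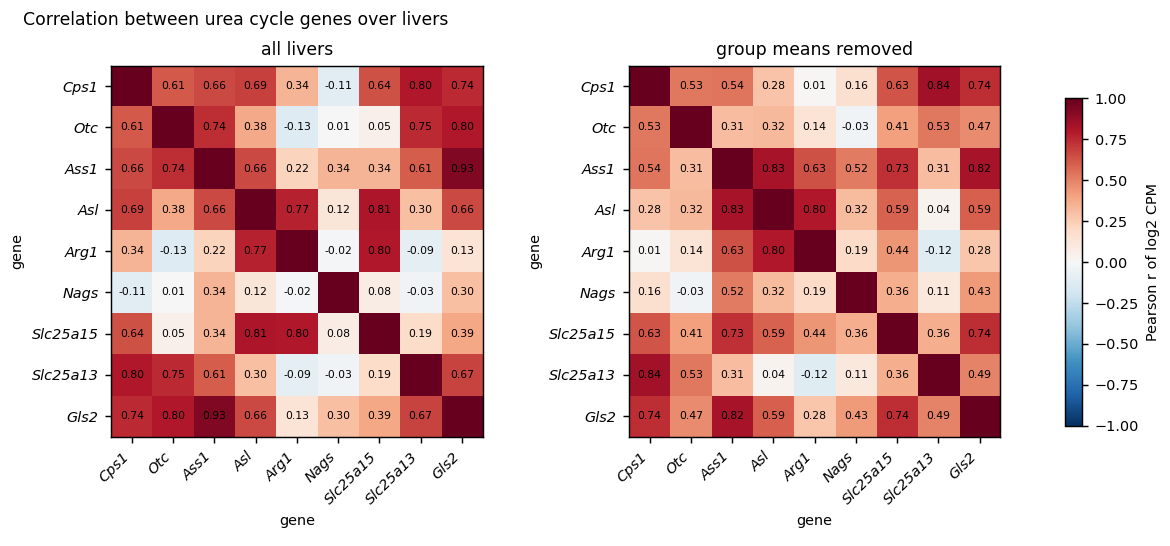
Pearson's r of log2 CPM between each pair of the 9 genes over 34 livers, as measured (left) and after the mean of each of the 6 groups was removed (right). On the right Cps1 and Slc25a13 stand at 0.84, Ass1 and Asl at 0.83, and Arg1 and Cps1 at 0.01.

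Outside the cycle, the 3 genes with the highest r were sought for each member among 7289 genes with a mean of at least 10 CPM, over the same 34 livers. Otc was most like Ugt2a3 (r = 0.98), Pon1 (0.98) and Ugt2b1 (0.97), genes of glucuronidation and of an esterase carried on lipoproteins. Gls2 was most like Hpd (0.96) and Fah (0.96), both of tyrosine breakdown, and Ivd (0.95), of leucine breakdown. Ass1 had its own pseudogene Gm5424 first (0.985), with which it shares reads, then Gnmt (0.92) and Ivd (0.91). Cps1 was closest to Selenop (0.93), Slc16a10 (0.89) and Tdo2 (0.89), Asl to Got1 (0.90), Sds (0.89) and Slc25a51 (0.88), and Arg1 to Dlst (0.88), Epb41 (0.88) and Mat1a (0.88). Slc25a15 was closest to Atp1b1 (0.92), Fh1 (0.91) and Aass (0.91), and Slc25a13 to Osbpl1a (0.93), Dpys (0.92) and Irf2 (0.92). Nags had the loosest companions, Rnf2 (0.71), Msi2 (0.69) and Lemd2 (0.68).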

How the data were processed

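RNA from whole liver (poly(A)-selected, stranded libraries) was sequenced in 34 mice. The authors deposited estimated counts per gene, made with STAR and Salmon on GRCm39 per the submitters' processing notes (versions not given in the sources used here), with 4.97% of values not whole. They were rounded to whole numbers before testing. Of 35 columns of values, 1 matched no sample and was not used. The letter x was missing from the gene symbols as deposited, and 1316 symbols were restored through their gene identifiers. Groups came from the labels, which, beside a library number, do not say more than that each sample is a biological replicate.

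Genes were kept by filterByExpr, scaled by TMM and fitted over all 6 groups with the quasi-likelihood test of edgeR 4.0.16 in R 4.3.3, with adjusted p by Benjamini-Hochberg over 14980 genes (common biological coefficient of variation 0.302). Standard errors and 95% intervals were derived from the test statistic. DESeq2 1.42.0, other scalings, filters, samples in the fit, a fold-change test (glmTreat), a replicate block and leaving out each library were alternatives. The code was tested on simulated data. Libraries of a group differed by more than sampling noise (smallest chi-square per gene 14.73).

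The 9 genes, the 4 lists of neighbouring genes and the 11 lists of cell type markers were chosen with earlier results of these data known. Beside the 9 genes, the text names 13 set neighbours and up to 4 genes per list with the largest change among those called in SIRTintKO livers at 24 h or between genotypes at 24 h; 1 of the set neighbours is not reported here, though the counts of its list include it.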

Additional observations from a re-analysis of the deposited data

Results flagged for a closer look

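Of 54 groups of values tested, 4 held a liver far from the others of its group by Dixon's criterion, which chance alone flags in about 1 group in 20. Untreated WT replicate 2 was the lowest of its group in Otc (279 CPM) and the highest in Gls2 (409 CPM). Untreated SIRTintKO replicate 6 was the lowest of its group in Nags (52.7 CPM). At 24 h SIRTintKO replicate 5 was the highest of its group in Gls2 (143 CPM), and its place on the first principal component was also apart from the other 6 livers (-8.1 against -80.3 to -49.7).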

How the results depend on the processing

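Of 2214 log2 fold changes of the 9 genes under alternatives, 2027 kept their direction and side of the threshold, 49 lost a call, 48 gained one and 90 changed sign. None of the last had been called (largest size before the change 0.40), and the cause was not tested. Of 251 counts of genes called, 213 stayed within 1.5 times. Settings that left out pairs or trios of livers were chosen after seeing the data.

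With glmTreat, a stricter test against the fold-change limit, the count called was 0 in WT (5% of all genes) and 0 in SIRTintKO livers (4.68%) at 6 h against 0 h, 0 in WT livers at 24 h against 0 h (4.47%), 0 in WT (0.534%) and 1 in SIRTintKO livers (1.74%) at 24 h against 6 h, and 0 between genotypes at 24 h, where no gene was called. Without a fold-change limit it was 4 in SIRTintKO livers at 6 h (38.4%), 5 in WT (34.1%) and 6 in SIRTintKO livers (50.2%) at 24 h against 0 h. With only the groups compared it was 0 in WT livers at 24 h against 6 h (3.03%) and 0 between genotypes at 24 h, where again no gene was called. Upper-quartile scaling gave 2 in SIRTintKO livers at 6 h (16.7%) and 1 between genotypes at 24 h (2.61%), where Asl had -0.99. A minimum of 10 counts in every library gave 2 in WT livers at 24 h against 0 h (10.9%). Leaving out WT replicates 1 and 2 gave a count of 1 between genotypes at 24 h (9.22%) and 1 for the 24-h interaction (5.26%; 1 also without SIRTintKO replicate 5, 10.5%). Without WT replicates 3 and 4 it was 5 against 0 h (30.6%) and 6 against 6 h (18.5%) in WT livers, and 2 for the interaction (4.16%). With single livers left out, counts ran from 3 to 5 (SIRTintKO, 24 h against 0 h), 1 to 2 (SIRTintKO, 6 h against 0 h), 1 to 3 (WT, 24 h against 0 h), 1 to 2 (genotypes at 24 h) and 0 to 2 (24-h interaction).

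The replicate numbers did not pair the livers: correlations of same-numbered deviations ran from -0.294 to 0.212 over the 9 pairs of groups, and 0 to 2 livers correlated best with their own number. With a replicate block the count was 3 in WT livers at 24 h against 0 h (14.5% of all genes) and 0 between genotypes at 24 h (1.12%; Gls2 -1.22, adjusted p = 0.0679, and Asl -0.86, adjusted p = 0.113, in edgeR). Under the replicate block the sign changed for Arg1 at 0 h between genotypes (-0.0025), Asl in WT livers at 24 h against 0 h (-0.11), Otc between genotypes at 6 h (-0.024) and 24 h (0.011), Cps1 between genotypes at 24 h (0.046) and in the 24-h interaction (0.057), and Slc25a13 in that interaction (0.11).

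Other changes of sign were these. For Asl in WT livers at 24 h against 0 h, values were -0.024 (10 counts in every library), -3e-04 (no filter), -0.035 (upper quartile) and -0.14 (without WT replicates 1 and 2). For Slc25a13 in the 24-h interaction they were 0.0036 (DESeq2), 0.0037 (median-ratio scaling), 0.0065 (no filter) and 0.77 (without WT replicates 3 and 4). Slc25a15 in SIRTintKO livers at 24 h against 0 h had -0.0031 (10 counts) and -0.0024 (upper quartile), Otc between genotypes at 6 h -0.030 (upper quartile), and Asl between genotypes at 0 h 0.0011 (only the groups compared). After WT replicates 1 and 2 were left out, Arg1 had 0.16 between genotypes at 24 h and 0.14 in the interaction, and Slc25a13 -0.50 between genotypes and 0.11 in WT livers at 24 h against 6 h. With SIRTintKO replicate 5 also left out, Arg1 had 0.215 and 0.19 and Slc25a13 -0.56. Without WT replicates 3 and 4, Cps1 had 1.34 between genotypes and 1.36 in the interaction, and Otc 0.49 and 0.38.

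With single livers left out, ranges that crossed 0 were as follows. Between genotypes at 0 h they were -0.050 to 0.077 (Arg1), -0.081 to 0.051 (Asl), -0.087 to 0.087 (Cps1), -0.15 to 0.0053 (Gls2) and -0.028 to 0.10 (Slc25a13). At 6 h they were -0.091 to 0.17 (Otc) and -0.090 to 0.015 (Slc25a13), and at 24 h -0.32 to 0.16 (Arg1), -0.46 to 0.29 (Cps1), -0.44 to 0.057 (Otc) and -0.23 to 0.24 (Slc25a13). In the 6-h interaction they were -0.23 to 0.076 (Ass1), -0.26 to 0.078 (Gls2) and -0.21 to 0.058 (Otc), and in the 24-h interaction -0.34 to 0.14 (Arg1), -0.44 to 0.31 (Cps1) and -0.25 to 0.22 (Slc25a13). Against 0 h at 24 h they were -0.43 to 0.28 (Asl, WT) and -0.11 to 0.096 (Slc25a15, SIRTintKO).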
